A study of Danio rerio with 44 samples.

Results

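The 8 genes described here, spry1, spry2, spry4, spred1, dusp6, il17rd, etv4 and etv5b, are switched on by fibroblast growth factor (FGF) signalling and, for the most part, damp it. They were found by symbol among the 25859 gene identifiers of the deposited table, each symbol matched 1 identifier, and all 8 passed the filter on low counts that left 22703 genes. They were chosen by name with earlier results of these data known, and so in part by their measured fold changes. No comparison is named in that choice. FBSA at 5 mg/L against its controls, which has the most called members, is treated as the one behind it, and its member values are given as a description without p-values.

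FGF ligands bind receptor tyrosine kinases, which pass the signal through RAS, RAF and MEK to the kinase ERK. Active ERK induces ETS transcription factors and, with them, inhibitors that act back on the cascade, so transcripts of these targets are widely used as a readout of pathway activity. In zebrafish embryos the pathway patterns the brain, the fins, the heart and the axial tissues.

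RNA was sequenced from 44 pools of 20 whole wild-type zebrafish embryos, exposed for 72 h from 24 to 96 hours post fertilization (hpf). PFOS (perfluorooctane sulphonate), PFECHS (perfluoroethylcyclohexane sulphonate, with a ring where PFOS has a straight chain) and FBSA (perfluorobutane sulphonamide, an amide on a shorter chain) were each given at 0.001, 0.1, 1 or 5 mg/L. Each compound had its own solvent controls, and all pools, controls included, carried 0.1% DMSO. Every group held 3 pools except FBSA at 0.1 mg/L, which held 2; the embryos of a pool share 1 value, so p-values measure the spread between pools. Library totals ran from 24478738 to 36533705 counts, and levels are given as CPM (counts scaled to one library total, after TMM), which compare samples for 1 gene and not genes with each other. In whole embryos, fewer cells of a type and less RNA per cell cannot be told apart.

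The last 11 columns of the deposited table stand out of the order of the others. They hold 7 FBSA pools, among them 2 of the 3 FBSA controls and none of the 5 mg/L pools, and 4 pools of the other compounds. What sets them apart is not given in the sources used here. The 27 markers of larval organs, such as lens, neurons, muscle and liver, were detected in every library apart from 2 myh6 copies, which were at 0 in 7 and 5 libraries.

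**Figure D1:**
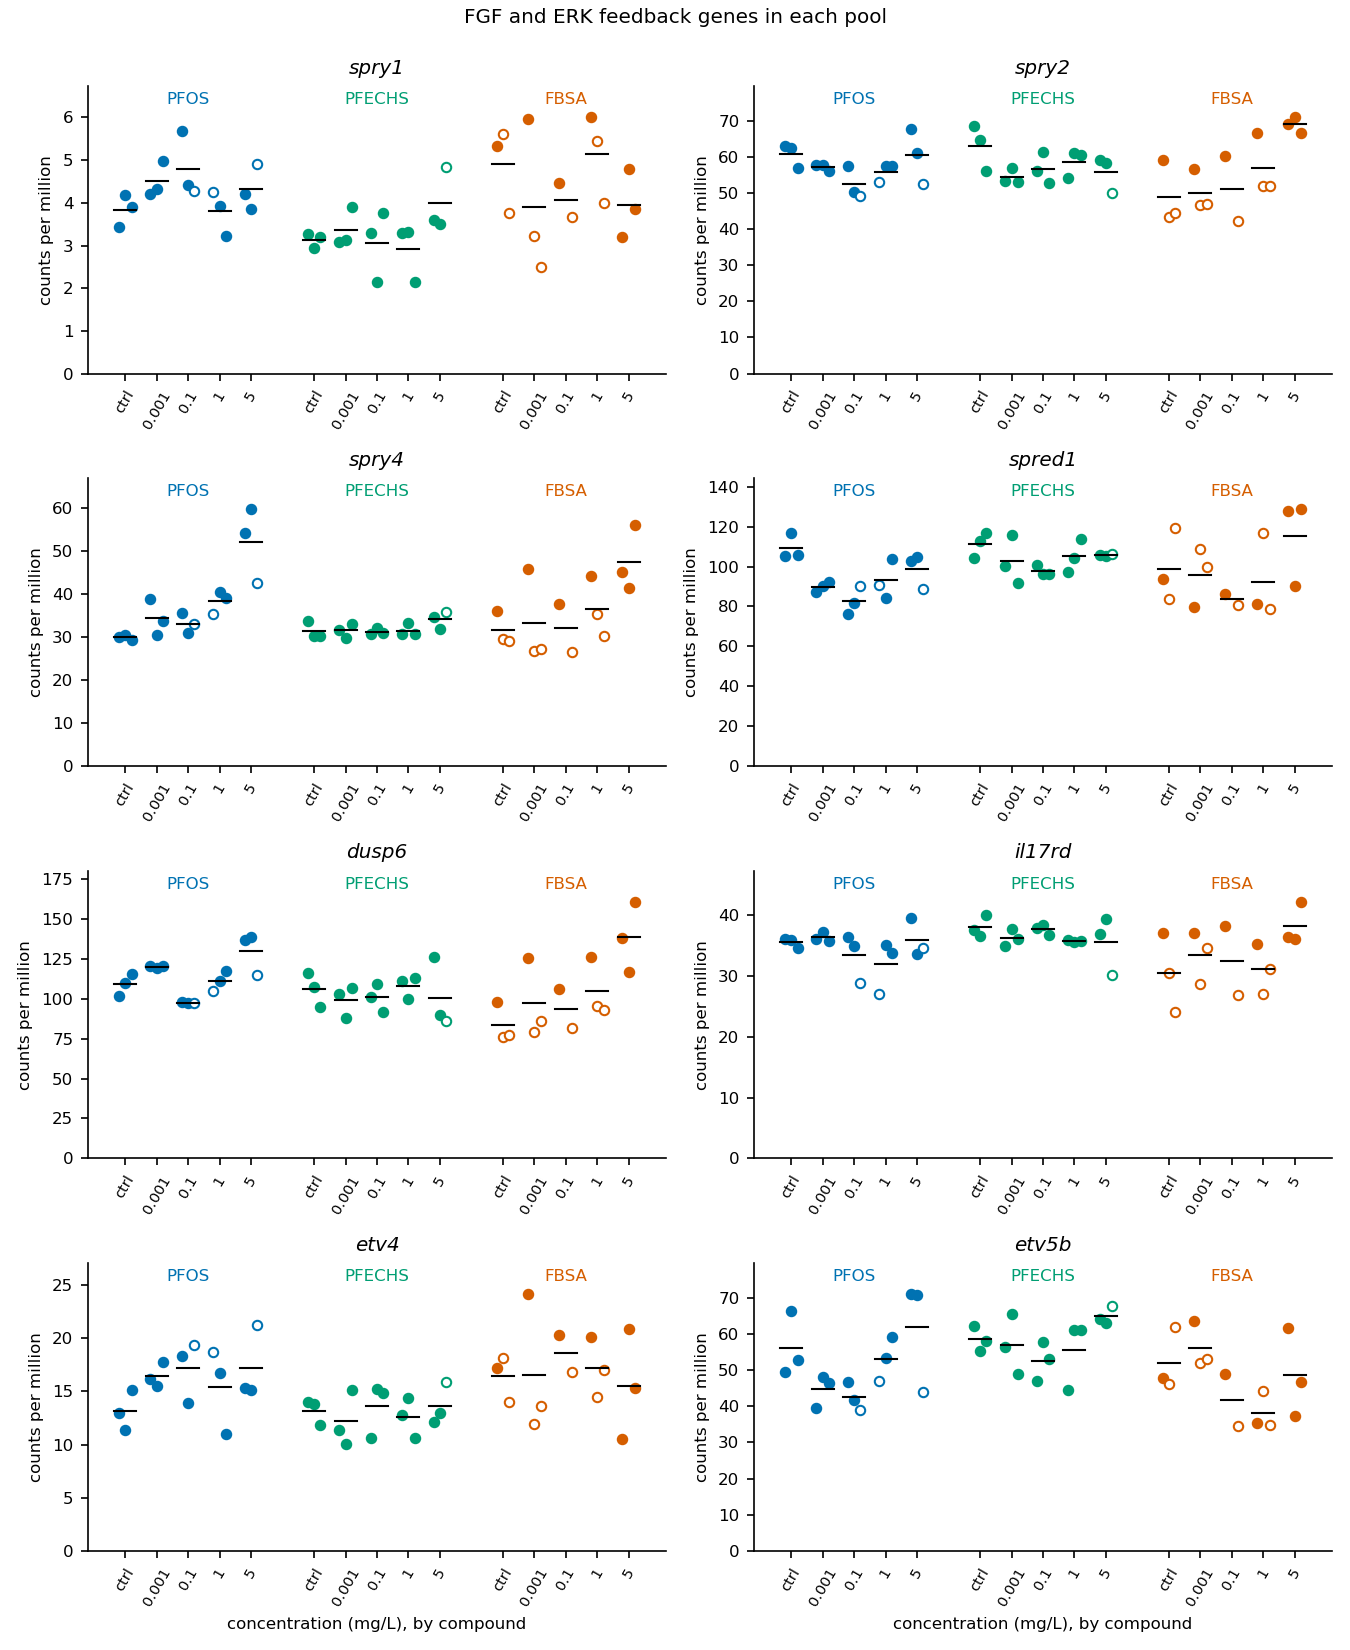
Level of each of the 8 genes (CPM, linear axes from 0) in every pool, by compound and concentration; points are pools, bars are group means, and open points are pools in the last 11 columns of the deposited table. The 3 PFOS pools and the 3 FBSA pools at 5 mg/L lie above all controls in the panel for spry4.

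The sprouty genes encode inhibitors that act between the receptor and RAF, and spry4 was the one member called in a trend under PFOS. In the PFOS series spry4 stood at 30.05, 30.46 and 29.32 CPM in the controls and at 54.09, 59.66 and 42.54 CPM at 5 mg/L. All 3 exposed pools were above every control pool of the 3 series; against the PFOS controls alone 11.1% of all genes were higher without overlap. Group means ± SD over 3 pools of PFOS were 34.3 ± 4.19 CPM at 0.001, 33.1 ± 2.32 at 0.1, 38.3 ± 2.75 at 1 and 52.1 ± 8.74 at 5 mg/L, against 29.9 ± 0.577 in the controls. From the controls to 1 mg/L each group overlapped with the next, and every 5 mg/L pool lay above every pool at a lower concentration.

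The log2 fold change of spry4 at 5 mg/L of PFOS was 0.80 ± 0.16 (SE), with adjusted p = 0.0969 in edgeR's quasi-likelihood test. It therefore missed the threshold of 0.05, which 0.0132% of all genes passed, and 0 of the 8 members were called there. At p under 0.05 without adjustment 1 member passed, as did 7.98% of all genes, and DESeq2 called 1, spry4 with adjusted p = 0.00761. The linear trend from control to 5 mg/L did pass for spry4, at 0.18 ± 0.04 log2 units per concentration step with adjusted p = 0.0254, as it did for 0.348% of genes, 0.211% upward. It was the only member called in that trend. The rule that picked the 8 genes names the spry4 identifier, so this result is not independent support for the choice. Across 8 other settings the adjusted p at 5 mg/L ran from 0.00113 to 0.120, and 6 of them called spry4. The share of all genes called in these settings, DESeq2 included, is not given here. The calls are therefore not read as particular to spry4. Among the exposed pools alone the PFOS trend of spry4 was 0.20 ± 0.05 per step with adjusted p = 0.303. Leaving out any 1 of the 3 control pools, 1 mg/L pool 2, or 5 mg/L pool 1 or 2 ended the call of the full trend, and leaving out 5 mg/L pool 3 (0.93 ± 0.17) made the 5 mg/L value pass, with adjusted p = 0.0464.

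The same 5 mg/L of PFECHS gave spry4 at 34.51, 31.92 and 35.73 CPM against 33.77, 30.10 and 30.16 CPM in its controls. The groups overlapped, and the log2 fold change was 0.12 ± 0.16 with a 95% interval from -0.21 to 0.45. The change under PFOS minus that under PFECHS was 0.68 ± 0.23, with an interval from 0.22 to 1.14. Its p was 0.0053 before and 1 after adjustment over all genes, so the difference was not called, and 0.0% of all genes were. Over the 12 comparisons of compound pairs at matched concentrations 2 of 96 member values were called, both of them PFECHS against FBSA at 5 mg/L, where 9.17% of all genes were called.

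In the FBSA series spry4 was 44.98, 41.31 and 55.95 CPM at 5 mg/L against 35.95, 29.54 and 29.12 CPM in the controls. The log2 fold change was 0.59 ± 0.16, and the groups did not overlap, as for 8.07% of all genes in that direction. The PFOS change of spry4 minus the FBSA change was 0.21 ± 0.23, with an interval from -0.25 to 0.67; 0 members and 4.92% of all genes were called in that difference. Set against the mean of each control group in turn, the 5 mg/L mean of spry4 was 1.503 times the FBSA controls, 1.58 times the PFOS controls and 1.51 times the PFECHS controls. For spry4, then, the ratio changed little with the series whose control mean was used. Within the FBSA controls, the 1 pool in the first 33 columns stood at 35.95 CPM and the 2 in the last 11 columns at 29.54 and 29.12 CPM.

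The other sproutys gave different values. spry2 in the FBSA pools at 5 mg/L stood at 69.1, 71.1 and 66.7 CPM against 59.2, 43.3 and 44.6 CPM in the controls, a log2 fold change of 0.49 ± 0.13 without overlap. Under PFOS at 5 mg/L its log2 fold change was -0.01 ± 0.13, and under PFECHS -0.17 ± 0.13. spry1 had group means from 2.91 to 5.15 CPM, and its log2 fold change at 5 mg/L was 0.17 ± 0.25 for PFOS, 0.35 ± 0.25 for PFECHS and -0.31 ± 0.24 for FBSA. The 3 PFECHS pools at 5 mg/L lay above their controls for spry1 and for etv5b, a pattern that 11.4% of all genes showed in that comparison.

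dusp6 encodes the phosphatase that removes the activating phosphates from ERK. It was at 138.2, 116.8 and 160.7 CPM in the FBSA pools at 5 mg/L and at 98.1, 76.1 and 77.1 CPM in their controls, a log2 fold change of 0.73 ± 0.16 without overlap. Under PFOS at 5 mg/L the pools ranged from 114.9 to 138.6 CPM against 101.8 to 115.3 CPM, which overlap, with a log2 fold change of 0.26 ± 0.15. At lower PFOS concentrations dusp6 changed sides: all 3 pools were above the controls at 0.001 mg/L (0.14 ± 0.15) and all 3 below at 0.1 mg/L (-0.16 ± 0.15). Neither value passed the test, and 16.4% and 14.5% of all genes showed the same lack of overlap in those directions.

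il17rd encodes a membrane protein, also called Sef, that restrains the receptor and ERK. Its pools at 5 mg/L of FBSA were between 35.9 and 42.1 CPM against 24.1 to 37.0 CPM in the controls, with a log2 fold change of 0.32 ± 0.14. The groups overlapped. At 5 mg/L the log2 fold change of il17rd was 0.02 ± 0.14 for PFOS and -0.10 ± 0.14 for PFECHS.

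At 5 mg/L of FBSA, then, 3 of the 8 members (dusp6, spry4 and spry2) were called higher and 0 lower, where 5.79% of all genes were called higher and 5.44% lower. This comparison is the one taken to lie behind the choice of genes, so nothing is read from that count. The same 3 members were called in the FBSA trends, over all FBSA pools (11.2% of genes called) and over exposed pools (7.35%), and these use the same 5 mg/L pools. The member median was 0.27 beside -0.01 over all genes. It was 0.16 beside 0.04 for PFOS and -0.01 beside 0.02 for PFECHS. Summed organ markers moved as well: they ran from 9228 to 16376 CPM in the FBSA 5 mg/L pools and from 15170 to 18239 CPM in their controls. Of the 27 markers 0 were called higher and 2 lower, crygm2d1 of the lens (-1.16 ± 0.23, adjusted p = 0.00216 in edgeR) and apoa1a of liver and yolk (-1.58 ± 0.47, adjusted p = 0.03), with a median of -0.63. The part of these shifts in the result was not tested.

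The FBSA controls bear on the size of these values. Their mean dusp6 level was 83.8 CPM, against 109 CPM in the PFOS controls and 106 CPM in the PFECHS controls. The FBSA 5 mg/L mean of dusp6 was therefore 1.65 times its own controls but 1.27 times the PFOS and 1.31 times the PFECHS controls. For spry2 the matching ratios were 1.407, 1.136 and 1.095. No member was called between control groups, where 0.15% of genes were called for PFOS against FBSA and 0.0% for the other pairs. Without adjustment, 2 members and 18.3% of genes had p under 0.05 in edgeR between the PFOS and FBSA controls. Between the PFECHS and FBSA controls 4 members and 22.8% of genes did, and between the PFOS and PFECHS controls 0 members and 1.01%.

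Within FBSA, the 7 pools below 5 mg/L or without FBSA that sit in the last 11 columns had a median dusp6 level of 81.7 CPM, against 115.7 CPM in the 4 such pools of the first 33 columns. For spry4 these medians were 29.1 and 40.9 CPM, for spry2 46.8 and 59.8 CPM, and for il17rd 28.6 and 37.0 CPM. The 4 pools all carry replicate number 1 and the 7 carry 2 or 3, so table place and replicate number cannot be told apart here. The 4 pools of the first 33 columns reached 126.2 CPM for dusp6 and 45.8 CPM for spry4. Both values lie within the range of the 5 mg/L pools, 116.8 to 160.7 CPM for dusp6 and 41.3 to 55.9 CPM for spry4. For spry2 those 4 pools reached 66.6 CPM, just under the lowest 5 mg/L pool at 66.7 CPM. With the first 33 columns alone, which leave 1 FBSA control, the log2 fold changes at 5 mg/L were 0.50 for dusp6, 0.40 for spry4 and 0.22 for spry2, and 0 members were called; the lone control was assumed to vary like the other groups, which supply the spread. With table place as a term in the fit they were 0.53, 0.39 and 0.31, and spry4 was no longer called. Leaving out FBSA 5 mg/L pool 3 ended all 3 calls, and leaving out control pool 2 left only dusp6. The folds kept their direction: without any 1 of the 6 libraries the log2 fold change ran from 0.61 to 0.84 for dusp6, from 0.45 to 0.68 for spry4 and from 0.41 to 0.64 for spry2. With the FBSA libraries fitted alone 0 members were called, at 0.74 ± 0.21, 0.60 ± 0.23 and 0.50 ± 0.17 for the same genes. The share of all genes called in these other fits is not given here, so nothing particular to the members is read from the lost calls.

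**Figure D2:**
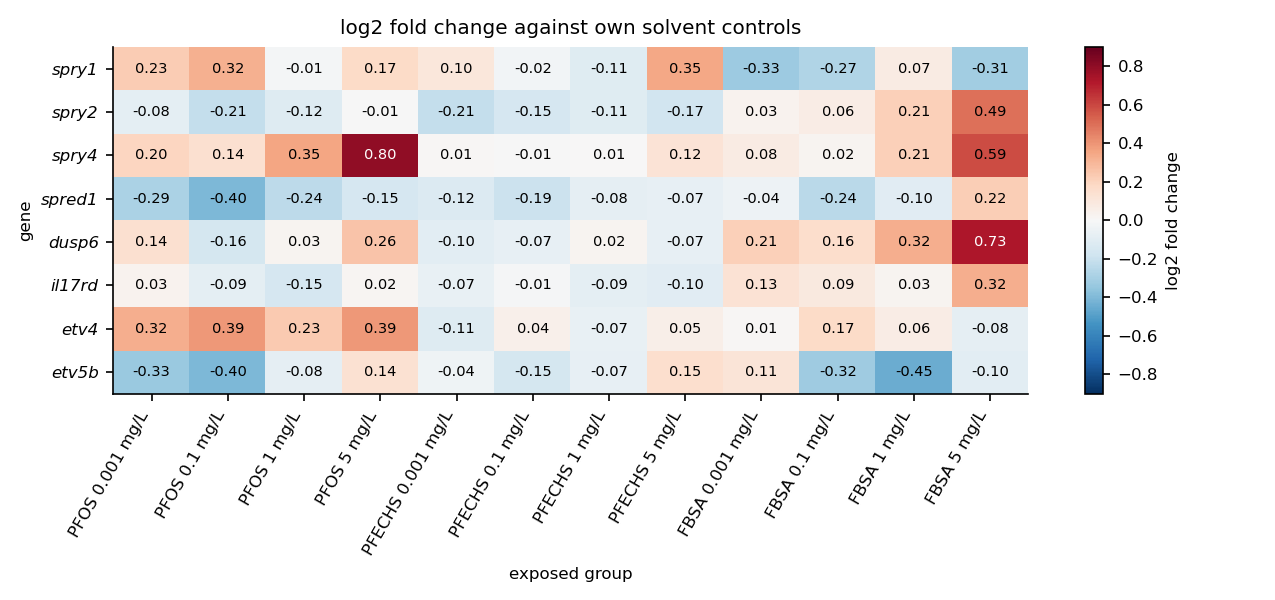
Heat map of the log2 fold change of the 8 genes (rows) for each exposed group against that series' controls (columns), from the edgeR fit; red is higher and blue lower than the controls. The largest values are spry4 at 5 mg/L of PFOS (0.80) and dusp6 at 5 mg/L of FBSA (0.73), and the PFECHS columns run from -0.21 to 0.35.

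spred1 encodes a sprouty-related protein that blocks the activation of RAF by RAS, and its direction under PFOS was opposite to that of spry4. It was at 105.5 to 117.1 CPM in the PFOS controls, 87.2 to 92.2 CPM at 0.001 mg/L, 76.5 to 90.2 CPM at 0.1, 84.3 to 104.0 CPM at 1 and 88.9 to 104.9 CPM at 5 mg/L. At all 4 concentrations every exposed pool was below every control pool. These 4 comparisons share their controls and are not separate evidence, and the share of all genes lower without overlap was 15.0%, 14.5%, 7.85% and 9.56% in turn. The furthest value was -0.40 ± 0.14 at 0.1 mg/L, with adjusted p = 0.25 in edgeR, so spred1 was not called. Under FBSA at 5 mg/L it was 0.22 ± 0.14, with pools on both sides of the controls' highest value.

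The ETS factors etv4 and etv5b, which carry the transcriptional response to FGF, were not called at any PFOS concentration. At 0.001 mg/L etv4 was 15.5 to 17.8 CPM against 11.4 to 15.1 CPM in the controls, while etv5b was 39.6 to 48.2 CPM against 49.4 to 66.5 CPM. Neither pair of groups overlapped, as for 16.4% of all genes upward and 15.0% downward, and the log2 fold changes were 0.32 ± 0.24 for etv4 and -0.33 ± 0.18 for etv5b, with adjusted p = 0.623 and 0.612 in edgeR. At 0.1 mg/L etv4 overlapped its controls, at 0.39 ± 0.24 with adjusted p = 0.411. For etv5b the value at 0.1 mg/L was -0.40 ± 0.18 (adjusted p = 0.299 in edgeR), and at 5 mg/L it was 0.14 ± 0.18. Under FBSA etv5b was lowest at 1 mg/L, at 34.7 to 44.3 CPM against 46.1 to 61.9 CPM in the controls, with a log2 fold change of -0.45 ± 0.18 and adjusted p = 0.597 in edgeR; 2.94% of genes were lower there without overlap. At 5 mg/L of FBSA, where dusp6, spry4 and spry2 were high, etv4 was -0.08 ± 0.24 and etv5b -0.10 ± 0.18.

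Below 5 mg/L no member was called for any compound. The share of all genes called was 0.0% at 0.001, 0.0176% at 0.1 and 0.00881% at 1 mg/L of PFOS, and 0.0% at each of these concentrations of FBSA. Over the 4 PFOS concentrations 4 of 32 member values had an unadjusted p under 0.05, where the share of all genes was 6.77%, 15.1%, 7.88% and 7.98% from the lowest to the highest. For PFECHS edgeR called 0 members at any of its 4 concentrations, as it did 0.0% of genes, and DESeq2 called 0 members too. None of the 32 PFECHS values had an unadjusted p under 0.05, where 3.77%, 3.72%, 1.87% and 7.03% of all genes did in the same order. Their 95% intervals reached from -0.61 to 0.85 at the outermost, both bounds from spry1. For spry2 at 5 mg/L the interval was -0.43 to 0.08 and for il17rd -0.37 to 0.18.

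**Figure D3:**
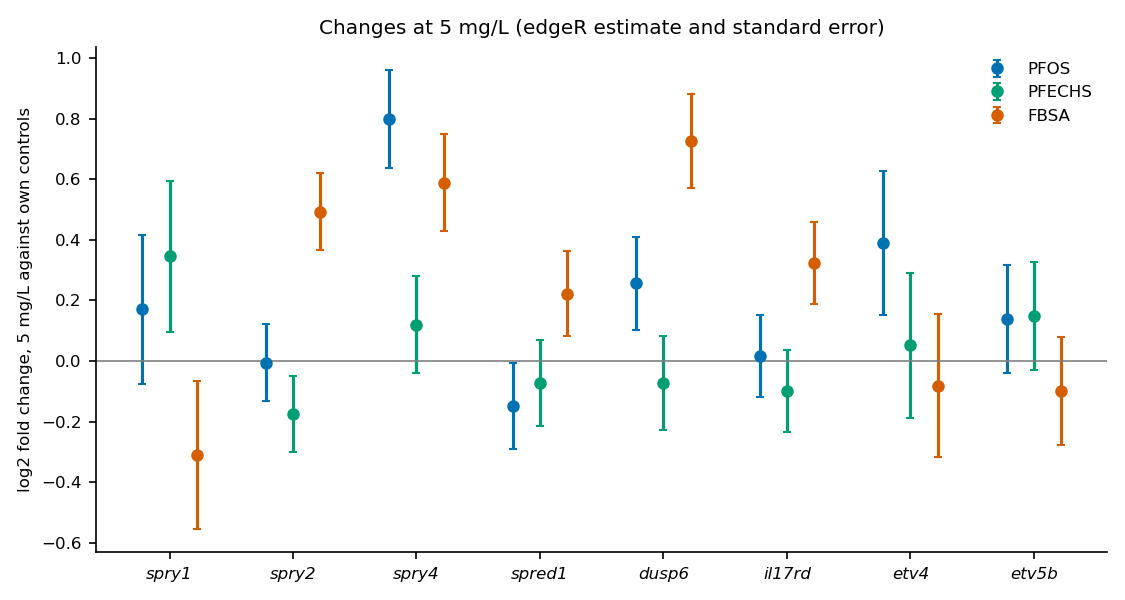
Log2 fold change of each gene at 5 mg/L against the compound's own controls (points, edgeR estimate; bars, standard error), coloured by compound. The PFOS and FBSA points for spry4 (0.80 and 0.59) stand above the PFECHS point (0.12), and for dusp6 and spry2 the FBSA point stands above both others.

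Pools of the same group also differed from each other. The deviations of log2 CPM from the group mean were correlated over the 44 pools, a measure that does not use the differences between groups; 28 pairs were computed, with p from 100000 permutations within groups and Benjamini-Hochberg adjustment. Of these, 7 pairs were positively and 1 negatively correlated past the threshold by Pearson's r. The lowest r of those 7 pairs was 0.55, and 7.39% of all pairs of tested genes reached it, while 1.98% were at or under the r of the negative pair. spry4 and dusp6 gave r = 0.77 and rho = 0.72 (adjusted p = 0.0021 and 0.0022 by permutation), and r = 0.69 without the 2 farthest pools. Within the compounds their r was 0.66 for PFOS, 0.32 for PFECHS and 0.97 for FBSA, and 0.73 over the first 33 columns. That last value still uses deviations from the means of whole groups, so it does not remove table place. spry2 joined both, with r = 0.66 to spry4 and 0.65 to dusp6, and gave 0.70 to il17rd. Over the first 33 columns these values of spry2 were lower, at 0.54, 0.48 and 0.63. Over the 6 pairs among dusp6, spry4, spry2 and il17rd, r ran from 0.71 to 0.97 within FBSA, from 0.24 to 0.66 within PFOS and from -0.52 to 0.47 within PFECHS. The pair of spry4 and il17rd (r = 0.51) did not pass, with adjusted p = 0.067 by permutation. That of dusp6 and il17rd passed by Pearson's r (0.56, adjusted p = 0.034 by permutation) but not by rho (0.44, adjusted p = 0.097 by permutation). Its r over the first 33 columns was 0.43.

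etv4 and spred1 went opposite ways, with r = -0.71 and rho = -0.69 (adjusted p = 0.0021 and 0.0022 by permutation) and r = -0.67 without the 2 farthest pools. This held within each compound, at -0.62 for PFOS, -0.70 for PFECHS and -0.78 for FBSA. spry1 followed etv4 (r = 0.64, rho = 0.66), and etv5b followed spred1 (r = 0.55, rho = 0.55). The ETS factors etv4 and etv5b themselves gave r = -0.37 with adjusted p = 0.15 by permutation. These values describe pools, each the mean of 20 embryos, and depth, stage, tissue makeup and table place are shared by all genes of a pool.

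**Figure D4:**
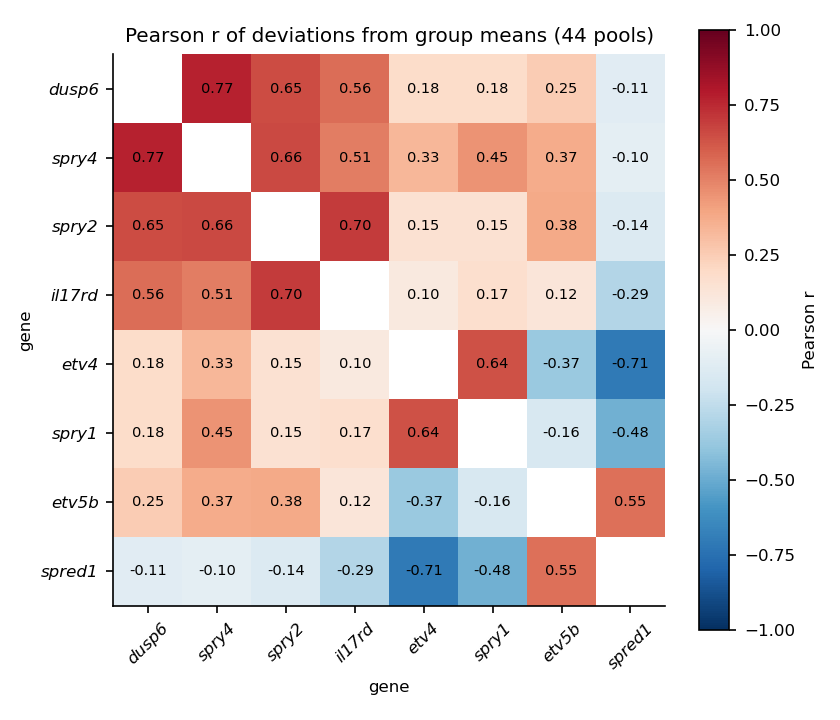
Pearson r between the 8 genes (rows and columns) for the deviation of each pool's log2 CPM from its group mean, over 44 pools; red is positive and blue negative. The 6 pairs among dusp6, spry4, spry2 and il17rd have r from 0.51 to 0.77 over all pools, 5 of them past the threshold by Pearson's r. Of these, dusp6 with il17rd did not pass by rho. The gene spred1 is negative with etv4 (-0.71) and spry1 (-0.48).

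The genes whose profile over the 44 libraries was most like the mean standardised profile of the members, centred within each compound, were pard6a (Pearson r = 0.802), SWAP70 (0.795), TESC (0.777), tsc22d2 (0.773) and creg2 (0.771), of 17148 genes compared. Among the members themselves spry4 (0.864), dusp6 (0.828) and spry2 (0.82) followed that mean most closely and etv4 (0.204) least. Each member is itself part of that mean, which raises its r, so the members' values cannot be set beside those of the other genes. The 44 libraries include those behind the choice of genes.

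Other genes of the pathway were taken from lists. None was called at 5 mg/L of PFOS or PFECHS, where 0.0132% and 0.0% of all genes were called. At 5 mg/L of FBSA 1 of 16 other feedback and ETS target genes was called higher and 0 lower. This was DUSP4, a nuclear phosphatase of MAP kinases, at 1.15 ± 0.33 (adjusted p = 0.025 in edgeR). Beside it spred2a stood at 0.33 ± 0.11 with adjusted p = 0.0509, and DUSP5, an ERK phosphatase, at 1.03 ± 0.43 with adjusted p = 0.111. The FBSA 5 mg/L mean of DUSP5 was 19.7 CPM against 9.61 CPM in the FBSA controls. The PFOS and PFECHS controls stood higher, at 29.9 and 22.1 CPM. For DUSP4 (25.1 CPM) and spred2a (51.9 CPM) that mean was above the means of all 3 control groups. The list's median was 0.31.

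Of 22 secreted FGF ligands tested, out of 24 identifiers, 0 were called at 5 mg/L of FBSA by edgeR, 5 had an unadjusted p under 0.05, where 28.1% of all genes did, and the median was -0.04. The 3 ligands with the smallest p were fgf17, FGF22 and FGF6 (ENSDARG00000009351). In edgeR they stood at 0.72 ± 0.25 (adjusted p = 0.0539), -1.38 ± 0.57 (adjusted p = 0.106) and -0.70 ± 0.32 (adjusted p = 0.153). Another identifier also carries the symbol FGF6. The FBSA 5 mg/L mean of fgf17 was 4.74 CPM against 2.87 CPM in the FBSA controls, with 4.03 and 4.53 CPM in the PFOS and PFECHS controls. For FGF6 it was 2.92 CPM against 4.77 CPM, with 2.66 and 2.73 CPM. For FGF22, which was low in all these groups, it was 0.23 CPM against 0.602 CPM, with 0.405 and 0.189 CPM. Of 9 receptors and co-receptors 1 was called higher, fgfr4 at 0.40 ± 0.12 with adjusted p = 0.0251. FGFR2 stood at 0.49 ± 0.18 with adjusted p = 0.0765.

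The 31 adaptors, RAS proteins and kinases of the cascade split evenly at 5 mg/L of FBSA, with 3 called higher and 3 lower and a median of -0.03. Against the FBSA controls HRAS (ENSDARG00000005651) was higher by 0.68 ± 0.16 (adjusted p = 0.0078 in edgeR), while the RAS gene kras was lower by 0.95 ± 0.24 (adjusted p = 0.0119). The FBSA 5 mg/L mean of HRAS was 58.8 CPM against 36.8 CPM in the FBSA controls, with 49.7 and 49.3 CPM in the PFOS and PFECHS controls. For kras it was 6.52 CPM against 12.6 CPM, with 9.19 and 6.85 CPM. Of 21 immediate early genes 4 were called higher and 0 lower, with a median of 0.33. They include the AP-1 genes FOSL2 (1.00 ± 0.22, adjusted p = 0.00563 in edgeR), JUN (0.67 ± 0.18, adjusted p = 0.0164) and FOSL1 (2.33 ± 0.64, adjusted p = 0.0184). FOSL2 was at 32.3 ± 6.27 CPM (SD, n = 3) in the FBSA 5 mg/L pools against 16.2 ± 3.03 CPM in their controls, but at 26.0 ± 3.43 CPM in the PFOS controls. FOSL1 was low and uneven, at 7.82 ± 6.79 CPM (from 2.58 to 15.5 CPM) against 1.56 ± 0.416 CPM in the FBSA controls. These genes were named for the smallest p in this same comparison. The background for these lists is the 11.2% of all genes called in either direction at that concentration.

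**Figure D5:**
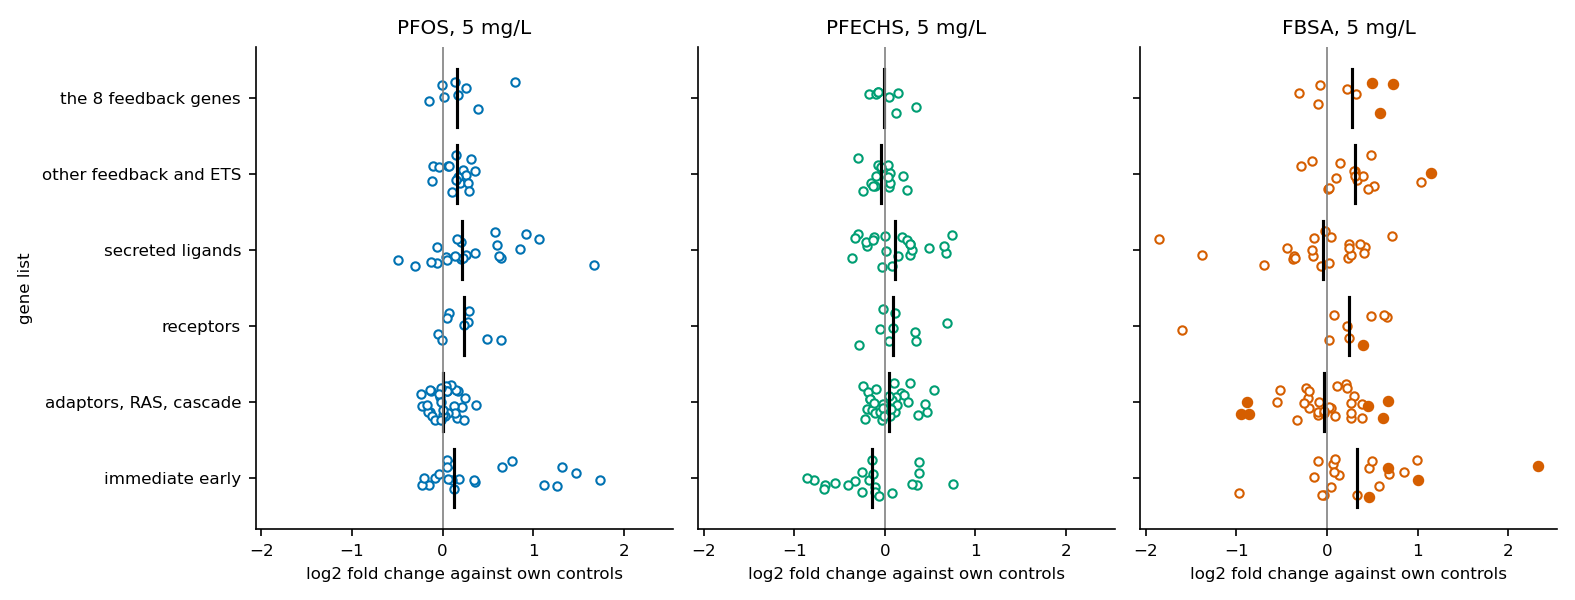
Log2 fold change at 5 mg/L of each gene in 6 pathway lists (rows) for PFOS, PFECHS and FBSA (panels); filled points passed the edgeR test at an adjusted p of 0.05, open points did not, and black bars are list medians. Filled points occur in the FBSA panel, for 3 of the 8 feedback genes, and there the ligands' median is -0.04 and that of the immediate early genes 0.33.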

How the data were processed

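The authors deposited expected counts per gene identifier, a unit settled from the values, of which 54.1% to 79.8% per library are not whole. The program behind them is not given in the sources used here, and neither is the build. Per the submitters' processing notes, Trimmomatic, FastQC and MultiQC were run on the reads. Groups came from the labels, and 0 columns were left without a sample.

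The expected counts were rounded, filtered with edgeR's filterByExpr (minimum count 10) and fitted once over 44 libraries in 15 groups (edgeR 4.0.16 in R 4.3.3, TMM, quasi-likelihood F test, 29 residual degrees of freedom), with Benjamini-Hochberg adjustment over 22703 genes. Contrasts were each concentration against its own controls (12), linear trends with equal steps (3 with and 3 without controls), differences between compounds (12) and between controls (3). Standard errors are the log2 fold change over the root of F. 1 count equals 0.0274 to 0.0408 CPM. Simulated counts were used to check 1 comparison, FBSA at 5 mg/L against its controls. Where a 1.5-fold difference had been put in, 10 out of 67 such genes passed the threshold. With a 2-fold difference it was 39 out of 67, and with a 4-fold difference 65 out of 66. Genes simulated without a difference passed in 7 cases. Most 1.5-fold differences were therefore missed in this simulated comparison. Far fewer genes were changed in it than the 2550 called in the real one, so its detection rates need not hold for the members. For a member that was not called, the interval, where printed, gives the range of changes that remain possible. DESeq2 1.42.0, other size factors, no filter, single-compound fits, a replicate block, table place and left-out libraries were tried as alternatives; a principal component term and the first 33 columns alone were chosen after seeing the data.

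The members and gene lists were chosen with earlier results of these data known. All 8 members are named, and up to 3 genes of each list with the smallest p at 5 mg/L of FBSA. A gene that this rule would name is not reported here. Genes most like the members were the 5 with the highest r. Pools were not paired by replicate number in the main fit. The median correlation of same-numbered pools was 0.03 for PFOS, -0.05 for PFECHS and 0.065 for FBSA. In FBSA below 5 mg/L, controls included, replicate number and table place coincide, and this median does not separate them.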

Additional observations from a re-analysis of the deposited data

Results flagged for a closer look

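The change at 5 mg/L differed between PFECHS and FBSA for dusp6 and spry2 by a test of the difference itself. The PFECHS change minus the FBSA change was -0.80 ± 0.22 log2 units for dusp6 and -0.67 ± 0.18 for spry2, and 9.17% of all genes were called in the same comparison. It uses the FBSA 5 mg/L pools and controls that lie behind the choice of the genes, so both values are descriptions. With the first 33 columns alone, or with only the libraries of both compounds, 0 members were called.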

How the results depend on the processing

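Groups of 2 or 3 pools, the shared FBSA controls and the uneven table place limit these values. No member's log2 fold change at 5 mg/L that was called changed sign, and RLE size factors and the absence of a filter moved no count of called members. At 5 mg/L of PFOS, 0 members became 1 (spry4) with only the compared compound, table place, the main axis (first principal component), the first 33 columns or DESeq2. At 5 mg/L of FBSA and in its trend, 3 became 0 with FBSA alone or the first 33 columns. In the trend over exposed pools, PFOS went from 0 to 1 with table place, the main axis or the first 33 columns, and FBSA from 3 to 0 with FBSA alone and to 1 with table place or the first 33 columns. For PFOS minus FBSA, 0 became 1 with the main axis or DESeq2. For PFECHS minus FBSA, 2 became 0 with only both compounds or the first 33 columns, 1 with table place and 4 with the main axis. The first 33 columns leave 1 FBSA control, assumed to vary like the other groups. For these other fits, and for those with a library left out, the share of all genes called is not given here. A changed count is therefore not read as particular to the members. The cause was not tested.

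Leaving out 1 library moved the number called from 0 to 1 for PFOS at 5 mg/L, between 0 and 4 for FBSA at 5 mg/L, between 0 and 1 for the PFOS trend, between 1 and 3 for the FBSA trend, between 0 and 4 for the FBSA trend over exposed pools, between 0 and 1 for PFOS minus FBSA, between 0 and 3 for PFECHS minus FBSA, and between 0 and 1 for the PFECHS against FBSA controls.

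With the replicate block, where numbers are shared only as names, PFOS at 5 mg/L went from 0 to 1 called member. PFOS minus FBSA went from 0 to 1, and the other counts stayed within 1.5 times. In FBSA below 5 mg/L, controls included, the numbers follow table place. Same-numbered pools correlated above 0.1 in 11 of 30 PFOS, 7 of 30 PFECHS and 13 of 26 FBSA pairs.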
